A study of Mus musculus with 3 samples.

Results

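Resting fibroblasts that express Dcn, which encodes the proteoglycan decorin, were followed through 3 single-cell RNA libraries from the roof of the mouse skull, the calvaria. They were chosen by thresholds on measured RNA counts. A cell barcode was taken when it had at least 500 detected genes, at most 10% mitochondrial counts and 0 counts of Ptprc, the gene of the immune cell antigen CD45. It also had to have less than 5 counts per 10000 (CP10K) of the epithelial keratins Krt8 and Krt18, at least 10 of the collagen genes Col1a2 and Col3a1, at least 5 of Dcn, and less than 20 each of the osteoblast genes Bglap and Bglap2 together, of Acta2 and of Timp1. The rule found 334 fibroblasts among 23831 barcodes that passed the gene and mitochondrial limits, 67 in Control, 187 in Scratch-negative and 80 in Scratch-positive. "Resting" here stands for low Timp1, which encodes a metalloproteinase inhibitor, and low Acta2, which encodes the actin of myofibroblasts. The levels of the genes in the rule are therefore given only as a description.

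All 3 libraries came from C57BL/6 mice aged 8 weeks. The Control calvaria carried no tumour. In Scratch-negative, labelled pre-invasive, HNM007 carcinoma cells had been placed on bone with its surface intact, and in Scratch-positive, labelled invasive, on bone scratched beforehand with a needle, which strips off the periosteum. Tissue was collected 1 week later with the tumour cut out, and equal parts of CD45-positive and CD45-negative cells were loaded on the 10x 3′ assay. Each group had 1 library, the number of mice behind it is not given in the sources used here, and there was no scratched calvaria without tumour, so the scratch, the loss of periosteum and the invasion cannot be told apart. Every difference described is one between 2 libraries, without an estimate of the spread between mice and without a p-value. Intervals are 95% intervals that cover counting error only.

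The periosteum is the connective tissue sheath of bone, with an outer fibrous layer and an inner layer that holds skeletal progenitors. Its fibroblasts lay down collagen fibrils whose spacing and diameter are set by small leucine-rich proteoglycans such as decorin, lumican, asporin and osteoglycin. In many mouse tissues a Pi16-positive, Dpp4-positive fibroblast population of connective tissue sheaths is described as a source of more specialised fibroblasts, and Clec3b, which encodes the plasminogen-binding protein tetranectin, is among its genes.

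The label was checked against 5 fibroblast genes, Dcn, Aspn, Ogn, Clec3b and Sfrp2, of which Dcn is in the rule. Summed over the fibroblasts of a library and divided by all their counts of unique molecular identifiers (UMIs), on a scale of 1000000 counts (CPM), the 5 genes stood at 13029 CPM in Control, 9155 in Scratch-negative and 6467 in Scratch-positive, against 24.5, 159 and 21.7 CPM in the immune barcodes of the same libraries. All 5 were detected in each library. Markers of other skeletal cells were present. The sum of 8 osteoblast markers was 7797, 636 and 2177 CPM in Control, Scratch-negative and Scratch-positive, an order of libraries kept wherever 3 values follow each other, that of 6 marrow reticular markers 2159.6, 648 and 370.1 CPM, and that of 6 chondrocyte markers 547, 146 and 212 CPM. At least 20 CP10K of the osteoblast markers were reached by 19, 12 and 6 fibroblasts, of the marrow reticular markers by 13, 11 and 1, and of the chondrocyte markers by 7, 3 and 0. The Control fibroblasts therefore held the highest level of each of these 3 marker sets. Results were recomputed in 38, 154 and 72 fibroblasts under 20 CP10K in each of these sets and under 200 CP10K in neutrophil markers, called the marker-restricted fibroblasts from here on. These limits were not matched for depth, and in a cell with few UMIs a few marker UMIs reach 20 CP10K. Control fibroblasts left out held as few as 835 UMIs, and 16, 10 and 0 of all fibroblasts had under 1000 genes. The part of depth in these counts and in the restriction was not tested.

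Markers of cells outside the skeleton were also counted. Neutrophil markers summed to 3899.5, 6170.3 and 9459.8 CPM in the fibroblasts against 383365, 344716 and 98852 CPM in immune barcodes, with a median per fibroblast of 39.5, 36.9 and 12.2 CP10K. Monocyte and macrophage markers summed to 129, 126 and 476 CPM, against 8631, 6714 and 3536 CPM in immune barcodes, erythroid markers to 183, 14.9 and 4.32 CPM, and adipocyte markers to 149.8, 17.6 and 14.7 CPM with Plin1 and Cidec at 0. Endothelial markers summed to 31.3, 16.6 and 11.2 CPM with Emcn at 0 in each library, Schwann cell markers to 138, 72.0 and 41.5 CPM with Sox10 at 0, mural markers to 74.9, 97.9 and 82.1 CPM, carcinoma markers to 1.74, 4.98 and 56.2 CPM with Krt5 and Krt17 at 0, and meningeal fibroblast markers to 214, 219 and 125 CPM. At least 20 CP10K of the meningeal markers were reached by 0, 3 and 0 fibroblasts, with a maximum of 192 CP10K in Scratch-negative. No other marker in these lists separates periosteal fibroblasts from fibroblasts of other calvarial layers, so "periosteal" rests on the tissue alone. Depth also differed between the libraries, from 100089008 UMIs in Control over 167623741 in Scratch-negative to 395654008 in Scratch-positive. A fibroblast held a median of 8458, 13622 and 12848 UMIs and 2729, 3603 and 3430 genes, and 21, 16 and 6 fibroblasts held under 5000 UMIs. Libraries shared 16 to 30 barcodes in pairs, and none of those was a chosen fibroblast in both libraries of a pair. In all, 574183, 3012642 and 1156472 fibroblast UMIs were counted.

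Among stromal barcodes that met the collagen threshold, the Dcn-positive resting fibroblasts made up 51.9% (43.0 to 60.8) of 129 in Control, 32.9% (29.1 to 37.0) of 568 in Scratch-negative and 17.8% (14.4 to 21.7) of 449 in Scratch-positive. Their share was highest without tumour and lowest with tumour on scratched bone, and the 3 counting intervals did not overlap. The rest of the stroma differed in kind. Timp1-high cells were 3.10% (0.851 to 7.75), 34.2% (30.3 to 38.2) and 12.0% (9.17 to 15.4). Acta2-high cells were 0 of 129 in Control, which allows up to 2.82%, then 11.6% (9.10 to 14.5) and 58.4% (53.6 to 63.0). Shares add up within a library, so that a smaller share of resting fibroblasts and a larger share of Timp1-high or Acta2-high cells are 1 observation. Since the CD45-positive share of each library was set at loading, cell numbers per calvaria cannot be read from these values. The shares obtained were not equal. Barcodes with a Ptprc UMI were 5895 of the 6577 that passed the gene and mitochondrial limits in Control. They were 6895 of 8151 in Scratch-negative and 4537 of 9103 in Scratch-positive. The cause of this departure from the loading was not tested.

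**Figure D1:**
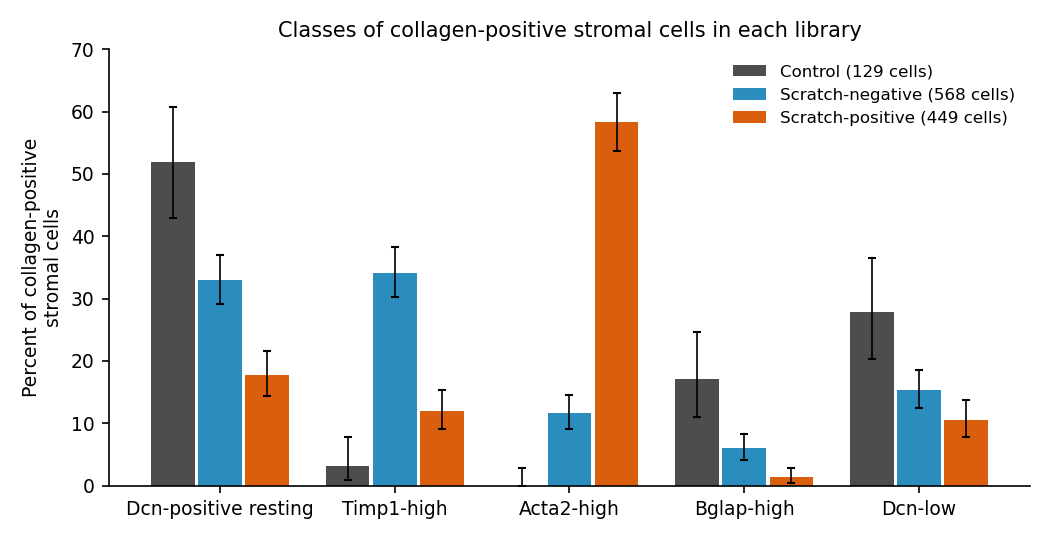
Percent of collagen-positive stromal cells (vertical axis) in each class for Control, Scratch-negative and Scratch-positive, 1 library each, with exact 95% counting intervals. The Dcn-positive resting fibroblasts fall from 51.9% over 32.9% to 17.8%, while Acta2-high cells reach 58.4% in Scratch-positive.

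Some thresholds passed through densely filled ranges. The fibroblasts nearest the Dcn threshold of 5 CP10K stood at 5.32, 5.02 and 5.26 CP10K, and the nearest cells left out at 4.90, 4.93 and 4.94. On the Timp1 threshold of 20 CP10K the nearest fibroblasts stood at 19.8, 19.5 and 19.2 and the nearest cells left out at 29.4, 20.2 and 21.0. In Scratch-negative, 27 fibroblasts had a Timp1 level between 10 and 20 CP10K and 53 cells between 20 and 40 were left out, against 3 and 2 in Control and 10 and 15 in Scratch-positive. On the Acta2 threshold of 20 CP10K they stood at 11.2, 17.6 and 19.7 inside and, in the tumour libraries, 20.1 and 20.1 outside, and on the Bglap threshold of 20 CP10K at 16.4, 11.9 and 6.35 inside and 21.5, 28.5 and 54.1 outside. The resting fibroblasts of Scratch-negative thus border on a continuous range of Timp1 levels. With the Timp1 threshold at 10 CP10K their share was 28.2%.

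Genes that set the fibroblasts apart from the other stromal cells of their own library were listed as a description, because the same cells were chosen by RNA levels. Pi16, which encodes a secreted peptidase inhibitor, and Clec3b were among the 3 leading genes in every library. Igfbp6, C3, Apod and Cd34 followed in Control, where only Bglap-high cells were numerous enough to compare with. Myoc, which encodes the secreted protein myocilin, led in both tumour libraries, at 297 CPM in Scratch-negative and 281 in Scratch-positive, against 0.155 and 0.709 in Timp1-high cells and 0 in Acta2-high cells. Ltbp4, which encodes a TGF-beta-binding protein of elastic fibres, was also on both tumour lists. The 15 leading genes of Scratch-positive included the neutrophil genes Lyz2, Ngp, Chil3, Camp, S100a8 and S100a9, and the part of neutrophil RNA in them was not tested. In that library 1 fibroblast reached 200 CP10K of the summed neutrophil markers, with 3164 CP10K against a median of 12.2.

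Gene levels were then compared between libraries within the resting fibroblasts. A gene was called higher or lower when its CPM differed by at least 1.5-fold and the whole interval of the ratio lay on that side of 1, among genes with at least 10 UMIs in both libraries together. In Scratch-negative against Control 5.43% of 11410 genes were called higher and 8.62% lower. For Scratch-positive against Control the shares were 6.24% and 12.2% of 9744 genes, and for Scratch-positive against Scratch-negative 3.78% and 8.99% of 11533. Genes called lower thus outnumbered those called higher in each comparison. The counts of every gene list below are to be read beside these shares over all genes. That balance depended on scaling, as higher genes made up 38.6% of all calls in Scratch-negative against Control on CPM and 50.7% with median-of-ratios size factors, 33.8% and 49.97% in Scratch-positive against Control, and 29.6% and 29.4% between the tumour libraries. Median-of-ratios scaling moved the median log2 ratio of all genes in Scratch-positive against Control from -0.12 to 0.01. The 2 comparisons against Control share that library, and their values are set side by side.

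The small leucine-rich proteoglycans, the products that space collagen fibrils, were more often lower than higher under tumour. Of 15 tested, 9 were lower and 3 higher in Scratch-negative against Control, with a median log2 ratio of -0.76 against -0.03 over all genes. In Scratch-positive against Control 7 were lower and 1 higher, with a median of -0.68 against -0.12. Between the tumour libraries 2 were lower and 3 higher, with a median of -0.19 against -0.10. The list includes Dcn, which the rule used. With the Timp1 threshold at 10 CP10K 5 of 15 were lower in Scratch-negative.

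Aspn encodes asporin, which binds collagen and TGF-beta. It stood at 1776 CPM (1669 to 1889) in Control, 913 (879 to 948) in Scratch-negative and 799 (748 to 852) in Scratch-positive, so that Control was high and both tumour libraries low, 1.95-fold lower (1.81 to 2.09) and 2.22-fold lower (2.03 to 2.43) than Control. Ogn, which encodes osteoglycin, stood at 959.6 CPM (881 to 1043) in Control, 595 (568 to 623) in Scratch-negative and 426 (389 to 466) in Scratch-positive, and was 1.61-fold lower (1.46 to 1.77) and 2.25-fold lower (1.99 to 2.55). Omd, which encodes osteomodulin, and Ecm2, an extracellular matrix gene of the same family, followed the same order of Control above the tumour libraries. Omd stood at 80.1, 28.9 and 31.1 CPM and was 2.77-fold lower (1.90 to 4.01) in Scratch-negative and 2.57-fold lower (1.63 to 4.10) in Scratch-positive, while Ecm2 stood at 120.2, 56.1 and 45.8 CPM and was 2.14-fold lower (1.59 to 2.85) and 2.62-fold lower (1.81 to 3.82). These 4 genes are neighbours on mouse chromosome 13, within chr13:49504810-49624501 of GRCm38, a stretch of 119.69 kb that holds 1 further protein-coding gene, Cenpp. With each cell given equal weight the log2 ratio of Scratch-negative to Control was -0.38 for Aspn and -0.13 for Ogn, and neither was then called. Ogn was also not called in Scratch-negative with the Timp1 threshold at 10 CP10K, with Dcn at 10 CP10K or more, or without the top fibroblast.

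Dcn, Lum, Kera and Epyc form a second cluster, in chr10:97479609-97682454, a stretch of 202.85 kb with these 4 protein-coding genes. Dcn, by which the fibroblasts were chosen, stood at 6484, 5644 and 4043 CPM. Lum, which encodes lumican, stood at 2454 CPM (2327 to 2586) in Control, 1144 (1107 to 1183) in Scratch-negative and 1249.5 (1186 to 1316) in Scratch-positive and was 2.14-fold lower (2.01 to 2.28) and 1.96-fold lower (1.82 to 2.11). Epyc, which encodes epiphycan of growth plate cartilage, stood at 81.9, 22.9 and 14.7 CPM and was 3.57-fold lower (2.41 to 5.25) and 5.57-fold lower (3.14 to 10.3). Kera, which encodes keratocan and is also a tendon gene, went the other way, with 0 UMIs in Control and 16.9 and 79.6 CPM in the tumour libraries, at least 3.24-fold higher and at least 15.2-fold higher against a floor of 3 UMIs. In each tumour library 1 fibroblast held much of it, 56.9% and 57.6% of the UMIs. Fmod, which encodes fibromodulin, stood at 592, 319 and 428 CPM and was 1.86-fold lower (1.64 to 2.10) in Scratch-negative, a call lost with equal weight per cell. Bgn, which encodes biglycan, was 1.502-fold higher (1.40 to 1.61) in Scratch-negative at 1705, 2560.5 and 2151 CPM, and was not called in the marker-restricted fibroblasts. Podn, which encodes podocan, stood at 78.4, 158 and 90.8 CPM, 2.02-fold higher (1.48 to 2.80) in Scratch-negative and 1.74-fold lower (1.41 to 2.17) in Scratch-positive than in Scratch-negative. In the marker-restricted fibroblasts Aspn stood at 2239, 964 and 835 CPM, Ogn at 1064, 593 and 447 CPM and Lum at 2523, 1075 and 1247 CPM, the same order of libraries for Aspn and Ogn.

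**Figure D2:**
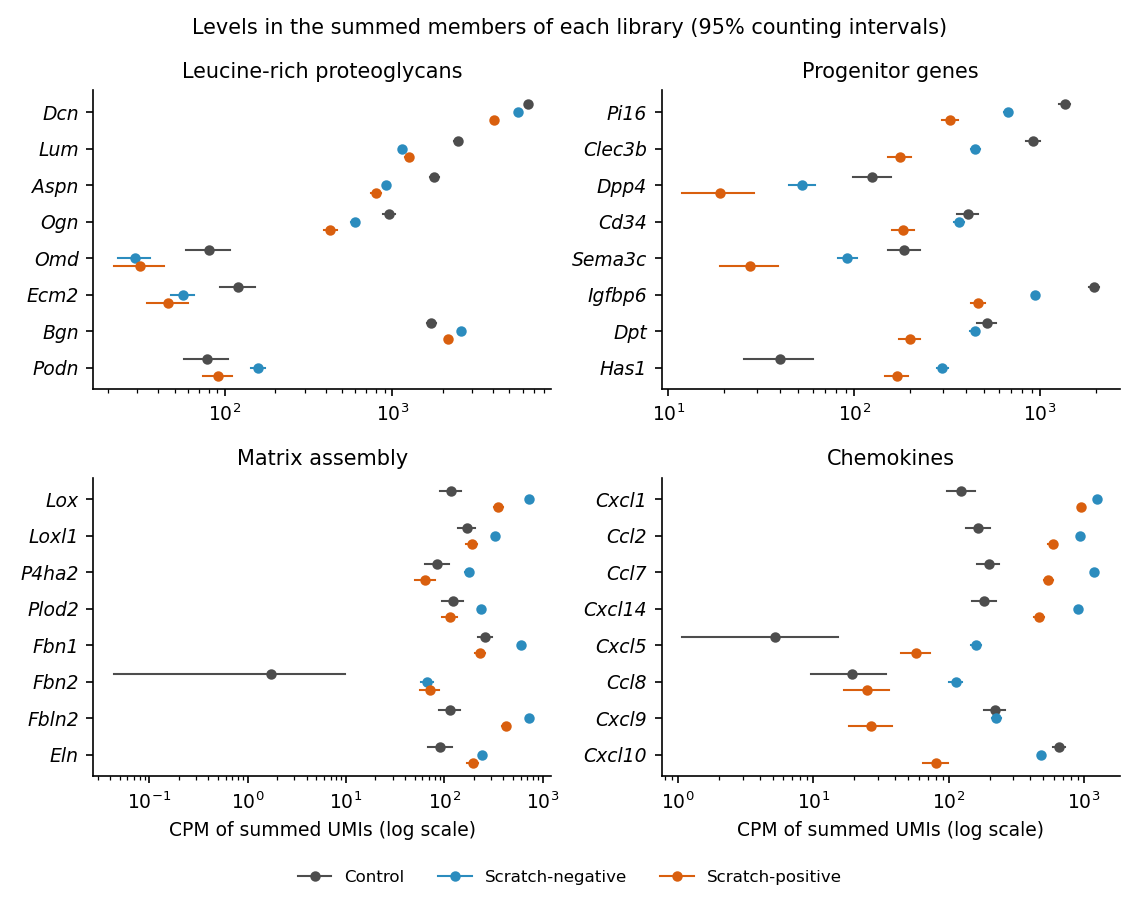
Levels in CPM (log axis) of 8 genes in each of 4 groups (proteoglycans, progenitor genes, matrix assembly, chemokines) in the resting fibroblasts of the 3 libraries, with 95% counting intervals. Aspn and Pi16 lie highest in Control at 1776 and 1357 CPM, and Lox and Cxcl1 lie lowest there at 117 and 124 CPM.

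Genes of the Pi16-positive progenitor population were more often lower than higher in the tumour libraries. Of 18 tested, 8 were lower and 4 higher in Scratch-negative against Control (median log2 ratio -0.33), 11 lower and 1 higher in Scratch-positive against Control (-1.26), and 14 lower and 0 higher in Scratch-positive against Scratch-negative (-1.01). Pi16 stood at 1357 CPM (1263 to 1455) in Control, 672 (644 to 702) in Scratch-negative and 329 (296 to 363) in Scratch-positive, 2.02-fold lower (1.85 to 2.19) in Scratch-negative and 4.13-fold lower (3.65 to 4.68) in Scratch-positive than in Control. Its level in immune barcodes was 55.6, 49.8 and 13.1 CPM. Clec3b stood at 918 CPM (841 to 999.6) in Control, 449 (426 to 474) in Scratch-negative and 176 (152 to 201) in Scratch-positive, 2.04-fold lower (1.84 to 2.26) and 5.23-fold lower (4.44 to 6.18). Both genes thus stepped down from Control over Scratch-negative to Scratch-positive. Between the tumour libraries Pi16 was 2.05-fold lower (1.83 to 2.29) and Clec3b 2.56-fold lower (2.21 to 2.98) on scratched bone. The Scratch-negative call of Pi16 was lost with equal weight per cell. In the marker-restricted fibroblasts Pi16 stood at 1908, 684 and 373 CPM and Clec3b at 1251, 451 and 196 CPM, the same order of libraries. Of the whole progenitor list, 3 of 18 genes were higher and 9 lower (median log2 ratio -0.60) in Scratch-negative and 1 of 18 genes was higher and 12 lower (median log2 ratio -1.46) in Scratch-positive against Control in these fibroblasts.

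Dpp4, which encodes a membrane peptidase, took the same steps at 125, 52.4 and 19.0 CPM, 2.39-fold lower (1.78 to 3.18) and 6.59-fold lower (4.04 to 11.2) than Control. Sema3c, which encodes a secreted semaphorin, stood at 186, 91.9 and 27.7 CPM and was 2.03-fold lower (1.61 to 2.54) and 6.73-fold lower (4.50 to 10.3). Igfbp6, which encodes an IGF-binding protein, stood at 1956, 944 and 462 CPM and was 2.07-fold lower (1.93 to 2.22) and 4.24-fold lower (3.82 to 4.70). Cd55, a complement regulator, followed at 172, 77.3 and 36.3 CPM, 2.23-fold lower (1.74 to 2.83) and 4.75-fold lower (3.28 to 6.98). This order did not hold throughout the list, as Cd34, a sialomucin, and Dpt, which encodes dermatopontin, were called lower only in comparisons with Scratch-positive. Cd34 stood at 408, 366 and 183 CPM and was 2.22-fold lower (1.84 to 2.69) than Control, and Dpt stood at 516, 445 and 199 CPM and was 2.59-fold lower (2.17 to 3.09). Genes of the list higher in Scratch-negative than Control were Ly6a, Ly6c1, Fbn1 and Has1. Ly6a, which encodes the surface antigen Sca-1, stood at 655, 1306 and 725 CPM, 1.995-fold higher (1.79 to 2.22), and Ly6c1 at 174, 333 and 205 CPM, 1.91-fold higher (1.56 to 2.37). The fibrillin gene Fbn1 stood at 261, 607 and 233 CPM, 2.33-fold higher (1.97 to 2.77). The hyaluronan synthase gene Has1 stood at 40.1, 298 and 169 CPM, 7.43-fold higher (4.92 to 11.8), and was also 4.23-fold higher (2.74 to 6.83) in Scratch-positive than Control. The Scratch-negative calls of Ly6a and Ly6c1 were lost with equal weight per cell, and that of Ly6c1 also in the marker-restricted fibroblasts.

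The share of resting fibroblasts with a Clec3b UMI was then counted after each cell had been thinned to 5000 UMIs, which left 46, 171 and 74 fibroblasts. Clec3b was seen in 30.4% (17.7 to 45.8), 38.0% (30.7 to 45.7) and 28.4% (18.5 to 40.1) of them, intervals that overlap. Without thinning the shares were 34.3%, 39.6% and 30%. Thinned immune barcodes, with a median of 9150, 11280 and 19341 UMIs before thinning, gave 0.130%, 0.388% and 0 of 3861, which allows up to 0.0955%. Thinned Timp1-high cells gave 1.61% in Scratch-negative and 0 of 51 in Scratch-positive, which allows up to 6.98%. Thinned Acta2-high cells gave 0 of 61 and 0 of 258, which allow up to 5.87% and 1.42%. In the positive fibroblasts the median was 14, 7 and 5 Clec3b UMIs. The lower Clec3b level of the tumour libraries went with fewer UMIs per positive cell, while the intervals of the shares of positive cells overlapped.

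Aspn or Ogn was detected in 93.5% (82.1 to 98.6), 90.6% (85.2 to 94.6) and 91.9% (83.2 to 97.0) of the thinned fibroblasts, and in 0.367%, 2.36% and 1.37% of immune barcodes. Unlike Clec3b, these genes were also common in the other stroma, in 48.9% and 66.7% of Timp1-high cells and 62.3% and 75.2% of Acta2-high cells of Scratch-negative and Scratch-positive. Both Clec3b and Aspn or Ogn were seen in 28.3%, 34.5% and 27.03% of the fibroblasts, so 13 of 14, 59 of 65 and 20 of 21 Clec3b-positive fibroblasts also held a UMI of Aspn or Ogn. Neither was seen in 4.35%, 5.85% and 6.76%.

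**Figure D3:**
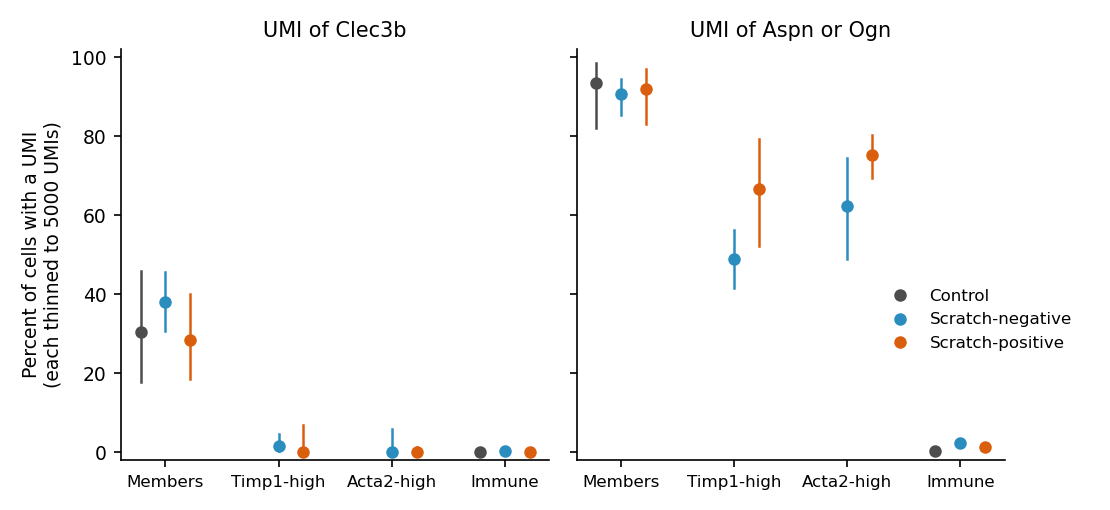
Percent of cells with a UMI of Clec3b and of Aspn or Ogn (vertical axis) after thinning to 5000 UMIs, in the resting fibroblasts, Timp1-high cells, Acta2-high cells and immune barcodes of each library, with exact 95% counting intervals. Clec3b is seen in 28.4% to 38.0% of the fibroblasts and in at most 1.61% of the other classes shown.

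Fibroblasts with a Clec3b UMI differed from those without one in several further genes, given as a description since the split was made on the same cells after their values had been seen. Pi16 stood at 5014 against 0 CPM in Control, 2597 against 13.2 in Scratch-negative and 1457 against 37.7 in Scratch-positive. Ly6a stood at 2629 against 0 CPM in Control, 2926 against 421 in Scratch-negative and 2305 against 249 in Scratch-positive, and Mfap5, a microfibril gene, at 2329 against 68.8 CPM in Control, 2317 against 398 in Scratch-negative and 2857 against 185 in Scratch-positive. All 3 genes were higher in the Clec3b-positive fibroblasts of each library. Myoc did the same at 314 against 12.5 CPM in Control, 1077 against 67.9 in Scratch-negative and 1619 against 3.77 in Scratch-positive. Its Control levels came from 22 and 2 UMIs, in 14.3% of the Clec3b-positive and 3.125% of the Clec3b-negative fibroblasts. The opposite held for periostin, Postn, which is expressed in periosteum and stood at 557 against 2594 CPM in Control, 446 against 975 in Scratch-negative and 314 against 947 in Scratch-positive. Tnn, which encodes the tenascin of periosteum and bone, stood at 0 against 1175 CPM in Control, 6.15 against 413 in Scratch-negative and 0 against 298 in Scratch-positive. Sfrp2, which encodes a secreted Wnt inhibitor, stood at 843 against 3319 CPM in Control, 883 against 2104 in Scratch-negative and 581 against 1072 in Scratch-positive. Higher Pi16, Ly6a, Mfap5 and Myoc thus came with Clec3b, and higher Postn and Tnn without it. For Sfrp2 and Postn the share of cells went against the level in Control. There Sfrp2 was seen in 64.3% of the Clec3b-positive and 40.6% of the Clec3b-negative fibroblasts, and Postn in 57.1% and 50%. Aspn gave no such order, with 686 against 2212 CPM in Control, 1074 against 1019 in Scratch-negative and 1105 against 713 in Scratch-positive.

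**Figure D4:**
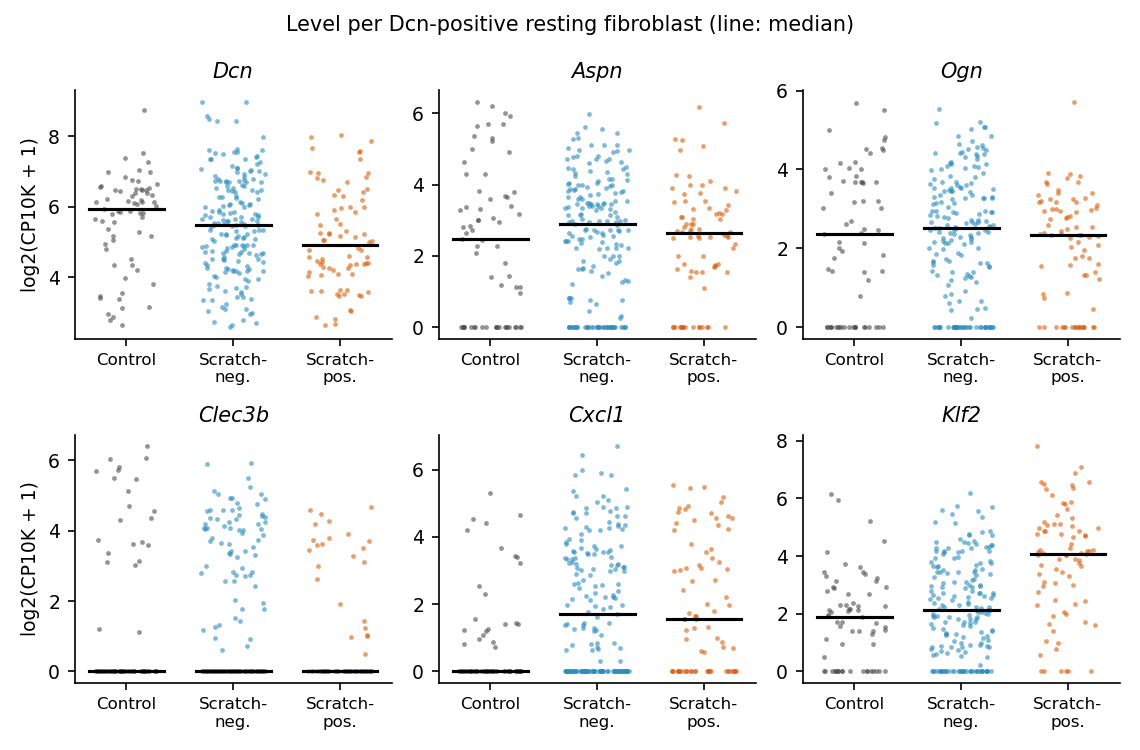
Levels per cell, log2(CP10K + 1), of Dcn, Aspn, Ogn, Clec3b, Cxcl1 and Klf2 in each resting fibroblast of the 3 libraries, with a line at the median. Clec3b has a median of 0 in each library with a group of positive cells above it, and the median of Klf2 in CP10K is 2.74, 3.39 and 16.0.

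Collagen genes were called in both directions, in part at shares near those over all genes. Against Control 3 of 19 genes were higher and 2 lower (median log2 ratio 0.10) in Scratch-negative and 1 of 19 genes was higher and 2 lower (median log2 ratio -0.21) in Scratch-positive, where equal weight per cell turned the median to 0.042. Over all genes 5.43% were higher and 8.62% lower in Scratch-negative, and 6.24% and 12.2% in Scratch-positive. In Scratch-positive against Scratch-negative 1 of 19 genes was higher and 4 lower (median log2 ratio -0.16). Col1a1, a chain of the main fibril collagen, stood at 20307, 19336 and 19373 CPM with no call in any comparison. Genes that process and crosslink collagen were more often higher than lower in Scratch-negative, where 9 of 18 genes were higher and 1 lower (median log2 ratio 0.48) against Control. In Scratch-positive 2 of 17 genes were higher and 3 lower (median log2 ratio -0.099) against Control, and 0 of 18 genes were higher and 10 lower (median log2 ratio -0.66) against Scratch-negative. Among marker-restricted fibroblasts 8 of 18 genes were higher and 1 lower (median log2 ratio 0.56) in Scratch-negative against Control, and with the Timp1 threshold at 10 CP10K 5 of 18 were higher. Lox, which encodes lysyl oxidase, the enzyme that starts the crosslinks of collagen and elastin, stood at 117 CPM (90.4 to 148) in Control, 724 (694 to 755) in Scratch-negative and 355 (322 to 391) in Scratch-positive. It was low in Control and highest in Scratch-negative, 6.20-fold higher (4.87 to 8.03) there and 3.05-fold higher (2.35 to 4.005) in Scratch-positive than in Control. Loxl1, its relative that acts on elastin, stood at 169, 325 and 190.2 CPM, 1.92-fold higher (1.56 to 2.39) in Scratch-negative. The collagen lysyl hydroxylase gene Plod2 stood at 122, 235 and 113 CPM, 1.93-fold higher (1.51 to 2.50). The prolyl hydroxylase gene P4ha2 stood at 85.3, 177 and 64.0 CPM, 2.08-fold higher (1.55 to 2.84), and its call was lost with the Timp1 threshold at 10 CP10K. Plod2 and P4ha2 lost their calls with equal weight per cell. Timp1-high cells held 2004 CPM of Lox in Scratch-negative, above the resting fibroblasts of the same library.

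Elastic fibre genes were called in the higher direction alone in Scratch-negative, where 9 of 17 genes were higher and 0 lower (median log2 ratio 0.61) against Control. In Scratch-positive 4 of 17 genes were higher and 3 lower (median log2 ratio 0.063) against Control, and 0 of 17 genes were higher and 5 lower (median log2 ratio -0.44) against Scratch-negative. Among marker-restricted fibroblasts 6 of 17 genes were higher and 2 lower (median log2 ratio 0.31) in Scratch-negative against Control. Eln, the elastin gene, stood at 90.6 CPM (67.6 to 119) in Control, 241 (223 to 259) in Scratch-negative and 195 (171 to 223) in Scratch-positive, 2.66-fold higher (2.004 to 3.59) in Scratch-negative and 2.16-fold higher (1.59 to 2.98) in Scratch-positive than Control. Fbln2, which encodes fibulin-2 of elastic fibres and basement membranes, was 6.28-fold higher (4.92 to 8.15) and 3.72-fold higher (2.87 to 4.88) at 115, 722 and 427 CPM. Fbn2, which encodes a fibrillin best known from development, had 1 UMI in Control against 66.4 and 70.9 CPM in the tumour libraries, 38.1-fold higher (6.76 to 1513) and 40.7-fold higher (7.11 to 1627). Each of the 3 genes was low in Control and high in both tumour libraries. Col8a1, which encodes a short-chain collagen, stood at 192, 545 and 331 CPM, 2.84-fold higher (2.34 to 3.48) and 1.73-fold higher (1.40 to 2.16), the last a call lost without the top Scratch-positive fibroblast. Against Control, of the matricellular and adhesion list 7 of 21 genes were higher and 4 lower (median log2 ratio 0.46) in Scratch-negative and 6 of 21 genes were higher and 6 lower (median log2 ratio -0.089) in Scratch-positive, where 3 of 21 were lower in the marker-restricted fibroblasts. Thbs1, Wisp2 and Smoc2 were higher and Postn, Tnn and the tenascin-C gene Tnc were lower in both tumour libraries. Postn stood at 2301 CPM (2178 to 2428) in Control, 795 (763 to 827) in Scratch-negative and 796 (746 to 849.5) in Scratch-positive, 2.90-fold lower (2.71 to 3.10) and 2.89-fold lower (2.65 to 3.15) than Control. Tnn stood at 1022, 229.7 and 202 CPM, 4.45-fold lower (3.98 to 4.98) and 5.05-fold lower (4.33 to 5.90). Both genes were high in Control alone. Thbs1 stood at 117, 362 and 387 CPM, but immune barcodes held 1449, 959 and 439 CPM.

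Binding proteins of the IGF system differed in both directions. Igf1, the ligand, stood at 265 CPM (224 to 310.3) in Control, 584 (557 to 612) in Scratch-negative and 476 (437 to 518) in Scratch-positive, 2.21-fold higher (1.87 to 2.62) and 1.80-fold higher (1.501 to 2.17) than Control. Igfbp3 stood at 57.5, 385 and 489 CPM, 6.69-fold higher (4.74 to 9.77) and 8.52-fold higher (5.99 to 12.5). Igfbp4 stood at 1111, 2415 and 2902 CPM, 2.17-fold higher (2.004 to 2.36) and 2.61-fold higher (2.40 to 2.85). Igfbp5, the bone matrix binding protein, went the other way at 4554, 1213 and 1395 CPM, 3.75-fold lower (3.57 to 3.95) and 3.27-fold lower (3.07 to 3.48), as did Igfbp6. Of 13 genes tested, 4 were higher and 4 lower in each comparison against Control.

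Wnt ligands and modulators were more often lower than higher against Control. Of them 2 of 20 genes were higher and 9 lower (median log2 ratio -0.68) in Scratch-negative and 4 of 21 genes were higher and 8 lower (median log2 ratio -0.27) in Scratch-positive, while 7 of 20 genes were higher and 3 lower (median log2 ratio 0.31) in Scratch-positive against Scratch-negative. The Scratch-positive median against Control turned to 0.10 with the Timp1 threshold at 10 CP10K and to 0.010 with a limit of 50 CP10K on the neutrophil genes S100a8 and S100a9. Wnt2, a ligand, had 32, 37 and 1 UMIs, and was 4.54-fold lower (2.74 to 7.49) and 64.5-fold lower (10.8 to 2624) than Control. Rspo3, which encodes a potentiator of Wnt signalling, was 2.12-fold lower (1.63 to 2.73) and 2.89-fold lower (2.05 to 4.08) at 149.8, 70.7 and 51.9 CPM. Sfrp4, a secreted Wnt inhibitor gene, stood at 244, 155 and 27.7 CPM, 8.81-fold lower (5.97 to 13.4) in Scratch-positive than Control, while its Scratch-negative call was lost under 4 alternatives. Sfrp1, of the same family, went the other way at 20.9, 282 and 218 CPM, 13.5-fold higher (7.70 to 26.3) and 10.4-fold higher (5.86 to 20.4). Sfrp2 stood at 2891, 1554 and 1023 CPM, but 1 Control fibroblast held 53.2% of its Control UMIs. Without that fibroblast, and with all of Scratch-negative kept, the log2 ratio of Scratch-negative to Control was 0.15. Wif1, which encodes another secreted Wnt inhibitor, stood at 164, 75.02 and 214 CPM and was 2.85-fold higher (2.37 to 3.43) in Scratch-positive than in Scratch-negative. Bmp3, whose product opposes bone-forming BMPs, and its relative Gdf10 were lower in both tumour libraries, Bmp3 at 45.3, 9.63 and 11.2 CPM, 4.70-fold lower (2.66 to 8.27) and 4.03-fold lower (1.997 to 8.54), and Gdf10 at 129, 49.5 and 41.5 CPM, 2.61-fold lower (1.94 to 3.47) and 3.11-fold lower (2.13 to 4.56). The Scratch-negative call of Gdf10 was lost with equal weight per cell. Of the BMP and TGF-beta list, 2 of 22 genes were higher and 10 lower (median log2 ratio -0.64) in Scratch-negative and 1 of 22 genes was higher and 8 lower (median log2 ratio -0.62) in Scratch-positive against Control. The lower genes of that list were 5 of 22 and 3 of 21 in the marker-restricted fibroblasts.

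Chemokine and cytokine genes were more often higher than lower in Scratch-negative, and differed in both directions in Scratch-positive, against Control. Cxcl1, Ccl2 and Ccl7 were among the genes called higher in both tumour libraries. Over all 23 chemokine and cytokine genes tested in Scratch-negative against Control, 12 were higher and 4 lower (median log2 ratio 1.89, or 1.23 with genes at 0 UMIs set to their bound). Against Control, Scratch-positive had 7 higher and 8 lower of 19, and against Scratch-negative 0 higher and 15 lower of 24. Cxcl1, a neutrophil attractant, stood at 124 CPM (96.6 to 156) in Control, 1245 (1206 to 1286) in Scratch-negative and 950.3 (895 to 1008) in Scratch-positive, low in Control and high in both tumour libraries, 10.1-fold higher (7.97 to 12.9) and 7.69-fold higher (6.04 to 9.91). Ccl2 and Ccl7, monocyte attractants, followed. Ccl2 stood at 165 CPM (134 to 202) in Control, 934 (900.2 to 969.6) in Scratch-negative and 588 (545 to 634) in Scratch-positive, 5.65-fold higher (4.60 to 7.004) and 3.55-fold higher (2.86 to 4.45). Ccl7 stood at 197 CPM (162 to 237) in Control, 1183 (1144 to 1222) in Scratch-negative and 545 (503 to 589) in Scratch-positive, 6.01-fold higher (4.98 to 7.31) and 2.77-fold higher (2.26 to 3.41). The Scratch-positive calls of Ccl2 and Ccl7 were lost with equal weight per cell. Cxcl14, an attractant expressed by many stromal cells, was 4.90-fold higher (4.03 to 6.02) and 2.52-fold higher (2.04 to 3.14) at 183, 897 and 461 CPM. Immune barcodes held 0.987, 104 and 143 CPM of Cxcl1, 7.62, 125 and 264 CPM of Ccl2 and 1.66, 79.9 and 99.0 CPM of Ccl7.

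For some other members of the list, such as Cxcl2 and Ccl4, 1 fibroblast held much of the Scratch-negative UMIs. Cxcl5, a neutrophil attractant gene, had 3 UMIs in Control and stood at 159 and 57.1 CPM in the tumour libraries, 30.5-fold higher (10.4 to 148) and 10.9-fold higher (3.58 to 54.3). Timp1-high cells held 936 and 705 CPM of it. Cxcl2 was 76.6-fold higher (26.2 to 372) in Scratch-negative than Control, with 45.4% of its UMIs in 1 fibroblast and 125, 1380.4 and 1524 CPM in immune barcodes. Ccl4 had 0 UMIs in Control, and 1 fibroblast held 89.0% of its Scratch-negative UMIs. Il6 was 2.09-fold higher (1.53 to 2.91) in Scratch-negative at 76.6, 160.0 and 122 CPM, and stood at 2.56, 142 and 135 CPM in the marker-restricted fibroblasts. Ptgs2, which encodes the inducible cyclooxygenase of prostaglandin synthesis, was 4.97-fold higher (3.74 to 6.76) and 2.56-fold higher (1.88 to 3.56) at 85.3, 425 and 219 CPM. Cxcl12, which holds leukocytes and stem cells in marrow, stood at 1480.4, 464 and 226 CPM, 3.19-fold lower (2.92 to 3.47) and 6.56-fold lower (5.70 to 7.56) than Control, but at 174, 224 and 124 CPM in the marker-restricted fibroblasts, whose definition uses it. Ccl11, an eosinophil attractant gene, stood at 305, 158 and 109.8 CPM, 1.93-fold lower (1.61 to 2.299) and 2.78-fold lower (2.20 to 3.52), the first a call lost without the top Control fibroblast. In the marker-restricted fibroblasts the whole list gave 13 higher and 3 lower of 23 in Scratch-negative and 9 higher and 1 lower of 16 in Scratch-positive against Control.

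The metallothionein genes Mt1 and Mt2, whose products bind zinc and copper, were high in 1 library only. Mt1 stood at 1456 CPM (1359 to 1558) in Control, 5074 (4994 to 5155) in Scratch-negative and 1779 (1703 to 1857) in Scratch-positive, 3.48-fold higher (3.25 to 3.74) in Scratch-negative than Control and 2.85-fold lower (2.72 to 2.99) in Scratch-positive than Scratch-negative. Mt2 stood at 503, 1742 and 547 CPM, 3.46-fold higher (3.07 to 3.91) and 3.18-fold lower (2.93 to 3.46). Timp1-high cells of Scratch-negative held 18035 CPM of Mt1. C3, the central complement gene, was low in Scratch-positive at 549, 519 and 137 CPM, 4.02-fold lower (3.31 to 4.89) than Control, while the ratio of Scratch-negative to Control was 0.946 (0.837 to 1.07). Saa3, an acute phase gene, had 0 UMIs in Control and stood at 83.3 and 16.4 CPM in the tumour libraries, at least 15.9-fold higher and at least 3.14-fold higher against a floor of 3 UMIs in Control. The Scratch-positive call was lost without the top fibroblast. Saa3 was seen in 3.51% and 1.35% of thinned fibroblasts, against 2.33% and 2.93% of thinned immune barcodes. The Scratch-positive share was thus below that of immune barcodes, and the part of RNA from other cells in it was not tested.

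Interferon response genes were called in the lower direction alone in Scratch-positive. Of the type I interferon list 0 of 16 genes were higher and 8 lower (median log2 ratio -0.87) against Control, and 0 of 19 genes were higher and 15 lower (median log2 ratio -1.08) against Scratch-negative. In Scratch-negative 2 of 19 genes were higher and 3 lower (median log2 ratio 0.19) against Control. The list's products act against viruses after induction through the interferon-stimulated response element, and the promoters of 4 genes are printed to show its letters. Taken from RefSeq on GRCm38.p6, each run is the 250 bases before the start of the gene, 5′ to 3′ on the gene's strand, at chr19:34640639-34640888 on the plus strand for Ifit1, chr19:34583279-34583528 on the plus strand for Ifit3, chr4:156200819-156201068 on the minus strand for Isg15 and chr5:92348890-92349139 on the minus strand for Cxcl10. Capitals mark GAAANNGAA on either strand, also where matches overlap.
Ifit1: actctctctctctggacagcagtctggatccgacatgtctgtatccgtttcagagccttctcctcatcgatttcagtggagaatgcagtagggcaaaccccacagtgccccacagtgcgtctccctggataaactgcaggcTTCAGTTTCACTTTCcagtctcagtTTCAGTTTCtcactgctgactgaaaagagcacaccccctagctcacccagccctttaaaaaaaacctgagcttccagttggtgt
Ifit3: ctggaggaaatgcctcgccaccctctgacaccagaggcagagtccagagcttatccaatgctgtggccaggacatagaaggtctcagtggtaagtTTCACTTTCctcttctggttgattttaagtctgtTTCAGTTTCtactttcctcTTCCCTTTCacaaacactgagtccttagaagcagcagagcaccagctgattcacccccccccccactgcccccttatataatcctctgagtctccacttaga
Isg15: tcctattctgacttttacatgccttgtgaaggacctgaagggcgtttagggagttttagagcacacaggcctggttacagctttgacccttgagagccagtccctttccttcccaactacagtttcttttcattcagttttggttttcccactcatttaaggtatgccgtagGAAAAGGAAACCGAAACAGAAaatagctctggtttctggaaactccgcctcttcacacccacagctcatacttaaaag
Cxcl10: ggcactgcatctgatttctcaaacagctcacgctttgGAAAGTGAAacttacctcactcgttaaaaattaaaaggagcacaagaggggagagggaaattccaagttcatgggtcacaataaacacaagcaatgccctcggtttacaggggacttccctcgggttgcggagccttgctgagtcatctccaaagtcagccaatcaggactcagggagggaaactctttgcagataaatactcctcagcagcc
Ifit1, Ifit3 and Isg15 hold 3 matches each and Cxcl10 holds 1. In windows from 250 bases before to 50 after the start, the letters occur in 8.56% of 32851 promoters, and in 11 of the 16 list genes with a promoter in the table. A match is a run of letters and not a bound site.

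Isg15, which encodes a ubiquitin-like modifier, stood at 251 CPM (212 to 295) in Control, 269.9 (252 to 289) in Scratch-negative and 116 (97.1 to 137) in Scratch-positive. The ratio of Scratch-negative to Control was 1.08 (0.900 to 1.29), and Scratch-positive was low, 2.16-fold lower (1.70 to 2.76) than Control and 2.33-fold lower (1.94 to 2.82) than Scratch-negative. Ifit3, which encodes an RNA sensor partner, stood at 269.9, 61.1 and 22.5 CPM, 12.0-fold lower (7.89 to 19.0) in Scratch-positive than Control. The Control fibroblast with the most UMIs of the gene held 60.6% of the Control UMIs for Ifit3 and 55.6% for Ifit1, whose product binds foreign RNA. Ifit1 stood at 141, 64.4 and 30.3 CPM, and without its top Control fibroblast the log2 ratio of Scratch-negative to Control was 0.0081. Leaving out the top Control fibroblast of Isg15 also ended the Scratch-positive call of that gene against Control. Ifi27l2a was highest in Scratch-negative at 439, 892 and 333 CPM, 2.03-fold higher (1.78 to 2.32) than Control and 2.68-fold lower (2.41 to 2.99) in Scratch-positive than Scratch-negative.

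Of the interferon-gamma and class I antigen presentation list 0 of 19 genes were higher and 11 lower (median log2 ratio -0.92) in Scratch-positive against Control and 0 of 20 genes were higher and 13 lower (median log2 ratio -0.69) against Scratch-negative. H2-K1 and H2-D1, the classical class I genes, stood at 604, 363 and 220.5 CPM and 984, 541 and 367 CPM. H2-K1 was 2.74-fold lower (2.32 to 3.23) and H2-D1 2.68-fold lower (2.36 to 3.05) in Scratch-positive than Control. B2m, their light chain, stood at 998, 684 and 528 CPM and was 1.89-fold lower (1.68 to 2.12), a call lost in the marker-restricted fibroblasts. Cxcl9 and Cxcl10, interferon-induced T cell attractants, stood at 219, 224 and 26.8 CPM and 651, 478 and 80.4 CPM. Between the tumour libraries Cxcl9 was 8.37-fold lower (5.84 to 12.4) and Cxcl10 5.94-fold lower (4.82 to 7.41) in Scratch-positive. Against Control their direction depended on the cells. The top fibroblast held 82.5% of the Control UMIs for Cxcl9 and 53.2% for Cxcl10. In the marker-restricted fibroblasts Cxcl9 stood at 2.56, 197 and 29.4 CPM and Cxcl10 at 20.5, 428 and 82.4 CPM, both then lowest in Control. In Scratch-positive against Control, 0 of 16 genes were higher and 8 lower (median log2 ratio -0.62) of the type I list and 2 of 17 genes were higher and 3 lower (median log2 ratio -0.43) of the interferon-gamma list in these fibroblasts. Counts of the 2 interferon lists in the marker-restricted fibroblasts were 0 higher and 11 lower of the type I list, and 0 higher and 8 lower of the interferon-gamma list, in Scratch-positive against Scratch-negative.

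Hypoxia and glycolysis genes were mostly higher in Scratch-negative, where 15 of 22 genes were higher and 0 lower (median log2 ratio 0.92) against Control. In Scratch-positive 5 of 19 genes were higher and 1 lower (median log2 ratio 0.37) against Control, and 0 of 22 genes were higher and 12 lower (median log2 ratio -0.88) against Scratch-negative. Among marker-restricted fibroblasts 15 of 22 genes were higher and 0 lower (median log2 ratio 1.15) in Scratch-negative against Control. With the Timp1 threshold at 10 CP10K the list gave 3 of 21 genes higher in Scratch-negative than Control, and 3 of 21 lower in Scratch-positive than Scratch-negative. The counts were thus smaller without the fibroblasts near the Timp1 threshold. Adm, which encodes the vasodilator adrenomedullin, stood at 13.9 CPM (6.02 to 27.5) in Control, 118 (106 to 130.4) in Scratch-negative and 21.6 (14.0 to 31.9) in Scratch-positive, 8.43-fold higher (4.23 to 19.7) in Scratch-negative than Control and 5.44-fold lower (3.62 to 8.51) in Scratch-positive than Scratch-negative. Slc16a3, a lactate exporter gene, stood at 12.2, 59.4 and 7.78 CPM, 4.87-fold higher (2.32 to 12.3) and 7.63-fold lower (3.93 to 17.0), with 286, 229.6 and 76.3 CPM in immune barcodes. Pgf and Vegfa, ligands of VEGF receptors, stood at 34.8, 119 and 23.3 CPM and 94.0, 173 and 29.4 CPM. Pgf was 3.41-fold higher (2.18 to 5.65) and 5.09-fold lower (3.44 to 7.83). Vegfa was 1.84-fold higher (1.39 to 2.49), 3.20-fold lower (2.05 to 5.07) and 5.89-fold lower (4.16 to 8.60) in the 3 comparisons. Among the Scratch-negative calls lost at that Timp1 threshold were those of the list genes Eno1, Bnip3, Slc2a1 and Vegfa, and of Pgf and Slc16a3, and the log2 ratio of Vegfa turned to -0.15. In Scratch-positive the Vegfa call against Control was lost in the marker-restricted fibroblasts. Timp1-high cells of Scratch-negative held 228 CPM of Adm, 404 of Pgf and 534 of Vegfa. For Pgf and Slc16a3 the difference from Control was smaller without the fibroblasts near the Timp1 threshold.

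Immediate early genes, which respond within minutes to growth factors, stress and tissue dissociation, were called in the higher direction alone. Against Control 13 of 22 genes were higher and 0 lower (median log2 ratio 0.79) in Scratch-positive and 8 of 22 genes were higher and 0 lower (median log2 ratio 0.47) in Scratch-negative, and 4 of 22 genes were higher and 0 lower (median log2 ratio 0.18) in Scratch-positive against Scratch-negative. Among marker-restricted fibroblasts 13 of 22 were higher in Scratch-negative than Control. Fos stood at 3002 CPM (2862 to 3148) in Control, 4232 (4158 to 4306) in Scratch-negative and 6618 (6470.1 to 6768) in Scratch-positive, 2.20-fold higher (2.09 to 2.32) in Scratch-positive than Control. Junb stood at 1001, 1088 and 1793 CPM, 1.79-fold higher (1.63 to 1.97). Egr1, of the same class, was not called and stood at 1352, 1532 and 1576 CPM. Klf2, which encodes a transcription factor induced by blood flow in endothelium, stood at 505 CPM (449 to 567) in Control, 699 (669 to 729) in Scratch-negative and 2433 (2344 to 2525) in Scratch-positive, 4.82-fold higher (4.27 to 5.46) than Control and 3.48-fold higher (3.29 to 3.69) than Scratch-negative. The high library of Fos, Junb and Klf2 was Scratch-positive. Klf2 stood at 623 CPM in Timp1-high cells and 168 CPM in immune barcodes of Scratch-positive, both below the resting fibroblasts. Cebpd, a transcription factor gene of inflammation and adipogenesis, was 2.28-fold higher (2.01 to 2.58) than Control at 533, 632 and 1213 CPM.

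Proliferation genes were more often higher than lower in both tumour libraries against Control. Against Control 8 of 19 genes were higher and 0 lower (median log2 ratio 1.34) in Scratch-negative and 13 of 19 genes were higher and 2 lower (median log2 ratio 1.94) in Scratch-positive, but the Scratch-negative median was -0.0017 with equal weight per cell. With the Timp1 threshold at 10 CP10K 4 of 19 were higher in Scratch-negative. Ube2c, of the mitotic ubiquitin ligase, had 2, 23 and 22 positive fibroblasts at 5.22, 50.5 and 101 CPM, and was 19.4-fold higher (6.46 to 95.2) in Scratch-positive than Control. With equal weight per cell its log2 ratios were -0.38 in Scratch-negative and 0.53 in Scratch-positive, neither called higher. Immune barcodes held 249, 338 and 466 CPM.

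Osteoblast genes were mostly lower in the tumour libraries than in Control. Of the differentiation list 0 of 16 genes were higher and 14 lower (median log2 ratio -2.297) in Scratch-negative and 1 of 16 genes was higher and 11 lower (median log2 ratio -1.43) in Scratch-positive against Control. In the marker-restricted fibroblasts, chosen for low levels of 8 such markers, 1 of 12 genes was higher and 4 lower (median log2 ratio -0.69) in Scratch-negative and 2 of 11 genes were higher and 4 lower (median log2 ratio -0.47) in Scratch-positive. Spp1 and Ibsp, bone matrix sialoproteins, stood at 5362, 385 and 1114 CPM and 1738, 86.6 and 759 CPM, with 78.3% and 70.3% of the Scratch-positive UMIs in the top fibroblast. Spp1 was 13.9-fold lower (13.0 to 14.9) and 4.81-fold lower (4.51 to 5.14), and Ibsp 20.1-fold lower (17.5 to 23.1) and 2.29-fold lower (2.09 to 2.51), than Control. Spp1 stood at 46.2, 153 and 96.1 CPM in the marker-restricted fibroblasts, lowest in Control. Runx2, the master regulator of osteoblasts, stood at 179, 66.1 and 97.7 CPM, 2.72-fold lower (2.12 to 3.46) and 1.84-fold lower (1.39 to 2.42) than Control, the last a call lost in the marker-restricted fibroblasts. Of the periosteal and skeletal progenitor list 1 of 19 genes was higher and 5 lower (median log2 ratio -0.12) in Scratch-negative and 2 of 19 genes were higher and 5 lower (median log2 ratio -0.13) in Scratch-positive against Control, where 1 of 19 were lower in the marker-restricted fibroblasts. Over all genes 5.43% were higher and 8.62% lower in Scratch-negative, and 6.24% and 12.2% in Scratch-positive. The share of higher genes of the list in Scratch-negative was near that over all genes. Prrx1, a limb and skull mesenchyme factor, stood at 463, 453 and 371 CPM and Ctsk, a periosteal stem cell marker that encodes an osteoclast protease, at 484, 446 and 494 CPM, and neither was called in any comparison. The ratio of Scratch-positive to Control was 0.801 (0.686 to 0.937) for Prrx1 and 1.02 (0.882 to 1.18) for Ctsk.

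Osteoclast regulators differed in both directions. Tnfsf11, which encodes RANKL, the inducer of osteoclasts, stood at 31.3, 26.2 and 44.1 CPM, and was 1.68-fold higher (1.16 to 2.42) in Scratch-positive than in Scratch-negative. Against Control its ratio was 0.836 (0.497 to 1.48) and 1.41 (0.808 to 2.56). Tnfrsf11b, which encodes osteoprotegerin, its decoy receptor, had 3, 45 and 4 UMIs and was 4.32-fold lower (1.57 to 16.5) in Scratch-positive than in Scratch-negative. Between the tumour libraries Tnfsf11 was thus higher and Tnfrsf11b lower on scratched bone, from 79 and 51 UMIs of Tnfsf11. Csf1, a growth factor gene of osteoclast precursors, stood at 104, 129 and 69.2 CPM. Of the whole list 6 of 13 genes were higher and 3 lower (median log2 ratio 0.76) in Scratch-negative and 4 of 12 genes were higher and 2 lower (median log2 ratio 0.27) in Scratch-positive against Control.

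Most metalloproteinase and inhibitor genes were not called. Calls went in both directions in Scratch-negative and were more often lower than higher in Scratch-positive. Over all genes 5.43% were higher and 8.62% lower in Scratch-negative, and 6.24% and 12.2% in Scratch-positive, against Control. Between the tumour libraries these shares were 3.78% and 8.99%. Against Control 2 of 16 genes were higher and 3 lower (median log2 ratio 0.25) in Scratch-negative and 0 of 16 genes were higher and 4 lower (median log2 ratio -0.27) in Scratch-positive, and 1 of 16 genes was higher and 6 lower (median log2 ratio -0.33) in Scratch-positive against Scratch-negative. The last count of lower genes was 3 of 16 in the marker-restricted fibroblasts. The list includes Timp1, which the rule used. Mmp3, which encodes stromelysin, stood at 17.4, 237 and 28.5 CPM, 13.6-fold higher (7.37 to 28.5) in Scratch-negative than Control, and 8.32-fold lower (5.87 to 12.2) in Scratch-positive than Scratch-negative. Mmp13, a collagenase gene of bone, stood at 573, 200.2 and 597 CPM, 2.86-fold lower (2.50 to 3.28) in Scratch-negative, a call lost in the marker-restricted fibroblasts at 97.4, 93.7 and 261 CPM. Mmp14, which encodes a membrane-bound collagenase, stood at 413, 419.6 and 472 CPM with no call.

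Further lists gave mixed counts. Over all genes 5.43% were higher and 8.62% lower in Scratch-negative, and 6.24% and 12.2% in Scratch-positive, against Control. Against Control, of the growth factor ligands 5 of 19 genes were higher and 4 lower (median log2 ratio 0.44) in Scratch-negative and 2 of 16 genes were higher and 4 lower (median log2 ratio -0.18) in Scratch-positive, and equal weight per cell turned the first median to -0.22. For the next 4 lists the first count is that of Scratch-negative and the second that of Scratch-positive against Control. Of the complement genes 3 of 13 genes were higher and 3 lower (median log2 ratio 0.33) and 2 of 12 genes were higher and 4 lower (median log2 ratio -0.39), and 1 of 13 genes was higher and 8 lower (median log2 ratio -0.71) in Scratch-positive against Scratch-negative. C3 was among the lower genes of both comparisons with Scratch-positive. Of the lipid handling and retinoid genes 2 of 17 genes were higher and 7 lower (median log2 ratio -0.66) and 2 of 16 genes were higher and 9 lower (median log2 ratio -0.67) against Control, and in the marker-restricted fibroblasts the first median was 0.29 and the lower genes were 3 of 16 and 4 of 15. Of the acute phase genes 6 of 12 genes were higher and 3 lower (median log2 ratio 1.203) and 3 of 11 genes were higher and 5 lower (median log2 ratio 0.12), and of the glucocorticoid response genes, which include Mt1 and Mt2, 7 of 16 genes were higher and 5 lower (median log2 ratio 0.53) and 6 of 16 genes were higher and 2 lower (median log2 ratio 0.42).

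**Figure D5:**
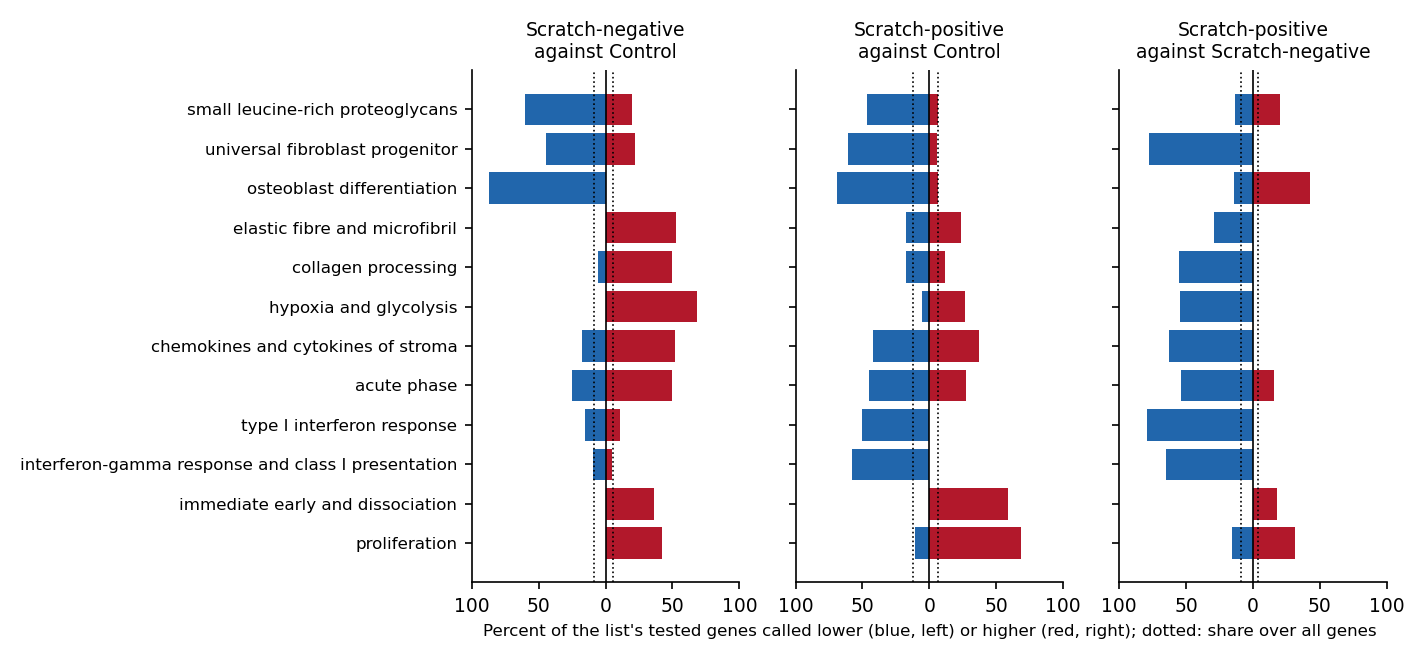
Percent of the tested genes of 12 lists that were called lower or higher in the resting fibroblasts in each of the 3 comparisons, with dotted lines at the share over all genes. Bars are percentages of small lists of 11 to 24 tested genes and carry no interval.

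Further genes were far lower in the tumour libraries than in Control. Mrgprg, which encodes a receptor of the Mas-related family, had 150 UMIs in 9 Control fibroblasts and 0 in both tumour libraries, at least 262-fold lower in Scratch-negative and at least 101-fold lower in Scratch-positive against a floor of 3 UMIs. Smpd3, which encodes a neutral sphingomyelinase that bone mineralization needs, stood at 716, 19.6 and 17.3 CPM, 36.5-fold lower (27.8 to 48.9) and 41.4-fold lower (26.4 to 68.5). It was detected in 16, 16 and 2 fibroblasts, and stood at 923, 19.2 and 2.94 CPM in the marker-restricted ones. Daglb, a diacylglycerol lipase gene, was 11.4-fold lower (7.57 to 17.4) and 17.5-fold lower (8.74 to 39.6) at 136, 11.9 and 7.78 CPM. These 3 genes were high in Control alone. Limch1, an actin-associated gene, stood at 145, 20.2 and 16.4 CPM, 8.80-fold lower (5.30 to 15.3) in Scratch-positive than Control. Hapln1 and Col9a1, cartilage matrix genes, stood at 83.6, 5.64 and 13.8 CPM and 48.8, 0.996 and 16.4 CPM, 14.8-fold lower (8.37 to 27.5) and 49.0-fold lower (15.1 to 252) in Scratch-negative than Control. Esm1 stood at 88.8, 8.96 and 18.2 CPM, 9.91-fold lower (6.0998 to 16.4) and 4.89-fold lower (2.89 to 8.56). The angiotensinogen gene Agt stood at 41.8, 3.32 and 6.92 CPM, 12.6-fold lower (5.80 to 29.5) and 6.04-fold lower (2.63 to 15.6), the first a call lost when Dcn had to reach 10 CP10K. The haptoglobin gene Hp stood at 484, 75.7 and 138 CPM, 6.40-fold lower (5.35 to 7.66) and 3.50-fold lower (2.87 to 4.28), against 1285, 1568 and 671 CPM in immune barcodes, and its direction turned when Dcn had to reach 10 CP10K.

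Other genes were far higher in the tumour libraries than in Control. Crabp1, which encodes a retinoic acid-binding protein, had 0, 419 and 76 UMIs, at least 26.6-fold higher and at least 12.6-fold higher against a floor of 3 UMIs, and was detected in 35 and 15 fibroblasts of the tumour libraries. Ddah1, which encodes an enzyme that breaks down an inhibitor of nitric oxide synthesis, had 0, 351 and 90 UMIs, at least 22.3-fold higher and at least 14.9-fold higher. Timp1-high cells of Scratch-negative held 500.3 CPM of Crabp1 and 268 of Ddah1. Both genes were thus higher in those cells than in the resting fibroblasts, at 139 and 117 CPM in Scratch-negative. Pcsk5, a proprotein convertase gene, was 22.3-fold higher (10.2 to 61.0) and 11.7-fold higher (5.23 to 32.3) at 10.4, 233 and 122 CPM. Fabp5, which encodes a fatty acid-binding protein, was 8.39-fold higher (5.51 to 13.5) and 10.8-fold higher (7.04 to 17.4) at 38.3, 322 and 413 CPM, and immune barcodes held 38.4, 114 and 281 CPM.

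A further group was highest in Scratch-positive. Mest, an imprinted gene, stood at 59.2 CPM (41.0 to 82.7) in Control, 75.3 (65.9 to 85.8) in Scratch-negative and 463 (424 to 504) in Scratch-positive, 7.81-fold higher (5.52 to 11.4) than Control and 6.14-fold higher (5.25 to 7.20) than Scratch-negative, in 46 of 80 fibroblasts. Enpp2, which encodes autotaxin, the enzyme that makes lysophosphatidic acid, stood at 13.9, 27.9 and 109 CPM, 7.82-fold higher (3.85 to 18.5) and 3.91-fold higher (2.94 to 5.21). Hpgd, which encodes a prostaglandin-degrading enzyme, stood at 122, 50.1 and 158 CPM and was 3.16-fold higher (2.53 to 3.94) than in Scratch-negative, with 41.0% of its Scratch-positive UMIs in 1 fibroblast. Mest and Enpp2 were low in both other libraries. Gpha2, a glycoprotein hormone subunit gene, had 1 UMI in Control and stood at 92.3 and 772 CPM in the tumour libraries, 8.37-fold higher (7.31 to 9.61) in Scratch-positive than in Scratch-negative, from 15 fibroblasts. Aqp5, a water channel gene, also had 1 UMI in Control and stood at 47.8 and 174 CPM, 3.64-fold higher (2.92 to 4.54). Frat2, which encodes a GSK3-binding protein of Wnt signalling, was 4.72-fold higher (2.48 to 9.31) at 1.74, 5.31 and 25.1 CPM, and Ccl19, a dendritic and T cell attractant gene, 5.89-fold lower (3.49 to 10.7) at 48.8, 76.3 and 13.0 CPM. The gene model CR974586.5 was 31.2-fold lower (7.94 to 269) in Scratch-positive than Control, from 31 and 2 UMIs.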

How the data were processed

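Single-cell RNA was counted in 3 libraries, 1 per group. The authors deposited raw UMI counts per gene and barcode in matrices limited to called cells, and per the file headers Cell Ranger 6.1.2 had made them. The submitters' processing notes name the build mm10. The table held 31053 genes. Gene positions came from GENCODE M21 on GRCm38, in which 30934 of the gene IDs were found.

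All later values were computed in Python 3.11.15 with NumPy 2.4.6, SciPy 1.17.1, pandas 2.3.3, scanpy 1.11.5 and matplotlib 3.10.9. UMIs of the chosen fibroblasts were summed per library, since cells are not replicates, and given as CPM of their total. Intervals are exact Poisson for levels, and for ratios exact conditional binomial and for shares exact Clopper-Pearson. A library with 0 UMIs was set to a floor of 3, so that its fold is the least one. For lists, log2 ratios had 0.5 UMI, scaled by depth, added to either library. Doublets were not removed. Scrublet scores were computed per library, and removing the highest 0.8% per 1000 barcodes was an alternative that took out 2, 11 and 2 fibroblasts. Thinning to 5000 UMIs left out 21, 16 and 6 fibroblasts.

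The members and the gene lists were chosen with earlier results of these data known. Named genes were, in each comparison and direction, the 10 with the interval bound farthest from 1, among genes with at least 30 UMIs in both libraries together, seen in at least 10% of the fibroblasts of the higher library and at no less than 25% of their level in its immune and keratin-positive barcodes. Genes of the rule for members, mitochondrial, ribosomal protein, haemoglobin, Xist, Y-linked and most unnamed gene models were left out. List genes were named by role. Alternatives were other limits on Timp1, Dcn, neutrophil genes, genes and UMIs, median-of-ratios scaling and equal weight per cell. Added after the data had been seen were the marker-restricted fibroblasts, fibroblasts with at least 5000 UMIs, and leaving out the fibroblast with the most UMIs of a gene. The last left out 1 fibroblast from the library where the gene was higher. The other library was kept whole, so this alternative works on 1 side only.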

Additional observations from a re-analysis of the deposited data

How the results depend on the processing

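Each alternative was set against the values above. The share of resting fibroblasts in Scratch-negative fell to 28.2% with Timp1 under 10 CP10K. With equal weight per cell, where a call has no interval, 3016 genes were higher and 2327 lower in Scratch-negative against Control, 2086 and 2435 in Scratch-positive against Control, and 1319 and 2586 between the tumour libraries. A minimum of 50 UMIs left 649 and 633 lower genes against Control in Scratch-negative and Scratch-positive, with fewer genes tested. Of 305 single gene results, 100 lost the call under at least 1 alternative and 20 turned direction. The cause of these turns was not tested. With equal weight per cell, log2 ratios against Control turned for Birc5 (-1.10 in Scratch-negative, -0.46 in Scratch-positive) and Ube2c (-0.38 in Scratch-negative). In the marker-restricted fibroblasts they turned in Scratch-negative against Control for Cxcl12 (0.36) and Spp1 (1.72). They turned there in Scratch-positive against Control for Spp1 (1.05), Ccl19 (1.21), Cxcl10 (1.97), Cxcl9 (3.20) and Ibsp (2.33). Between the tumour libraries they turned for Spp1 (-0.67) and Hp (-1.84). With Dcn at 10 CP10K or more, Hp turned to 0.78 and 1.70 against Control in Scratch-negative and Scratch-positive. Without the top fibroblast of the higher library, Ifit1 (0.0081) and Sfrp2 (0.15) turned in Scratch-negative against Control, as did Hp (-0.49) and Spp1 (-0.66) between the tumour libraries. In fibroblasts with 5000 UMIs or more, Hp stood at -0.40 between the tumour libraries. With Timp1 under 10 CP10K, Vegfa turned in Scratch-negative against Control (-0.15), and Crabp1 (0.63) and Cxcl5 (0.14) between the tumour libraries. With S100a8 and S100a9 under 50 CP10K, Ccl4 turned between the tumour libraries (0.11). Of 78 list medians, 8 turned under some alternative. In Scratch-negative against Control these were proliferation (-0.0017) and growth factor ligands (-0.22) with equal weight, and lipid handling with Dcn at 10 CP10K or more (0.23), in the marker-restricted fibroblasts (0.29) and at a minimum of 50 UMIs (0.075). In Scratch-positive against Control they were collagens with equal weight (0.042), complement in the marker-restricted fibroblasts (0.089), and Wnt genes with Timp1 under 10 CP10K (0.10) or the neutrophil limit (0.010). Between the tumour libraries they were osteoblast differentiation in the marker-restricted fibroblasts (-0.28) and growth factor ligands with Dcn at 10 CP10K or more (0.13). No paired analysis was possible because each group has 1 library. With 1 library per group, spread between mice was not measured, intervals cover counting error only, and the groups cannot be told apart from the preparation of each library. Genes under 10 UMIs in both libraries together were not compared.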
